A study of Polypedilum vanderplanki with 33 samples.

Results

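The gene models described here are those whose gene line in the annotation deposited with the study carries neither a plus nor a minus strand. There were 5431 such strandless models of 28415 gene models in all, and the other 22984 had a strand. The rule that picks the members reads the annotation alone and no count, although it was chosen with earlier results of these data known. For comparison, 5545 of the stranded models also had 1 exon.

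A gene model is an interval of the genome annotated as a gene, in many cases because reads there were assembled into a transcript. In libraries that do not mark strand, the strand of an assembled transcript is generally read from the bases at its splice junctions, so a transcript without an intron gives no such evidence. Models of this kind are often short, weakly covered stretches, which can be genes in their own right, pieces of the untranslated ends of a neighbouring gene, unspliced intron RNA or repeats, and a model's place in the annotation alone does not tell these apart.

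Libraries for RNA-seq were made from whole larvae of Polypedilum vanderplanki, the sleeping chironomid, a midge whose larvae survive almost complete loss of water in a state called anhydrobiosis. The larvae came from inbred lines, the labels name no transgene or agent, and polyadenylated RNA was taken through a TruSeq RNA kit. Drying was sampled at 0 h (2 libraries), 1 h (2), 8 h (3), 12 h (3), 16 h (3), 24 h (3), 32 h (1), 36 h (1), 40 h (3) and 48 h (2), and rewetting of dried larvae at 0 h (2 libraries), 1 h (1), 3 h (2), 6 h (1), 12 h (1), 24 h (1) and 48 h (1). Of these 32 libraries, 22 were of batch 1 and 10 of batch 2 per the labels, and batch 2 held no library at 0 h or 1 h of drying. The replicate 2 library at 40 h of drying, of batch 2, was titled 40 h but labelled with a duration of 48 h, and was counted at 40 h. Nothing in the labels says that libraries of a time came from separate groups of larvae, so p-values measure only how far these libraries spread, and that spread may be technical. In whole larvae, fewer cells that hold a transcript and less of it per cell cannot be told apart.

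Total counts per library lay between 15015674 and 34179203, with a median of 25176108. A further library, rewetting 1 h replicate 2 of batch 2, was left out because it stood apart: at a depth of 15015674 counts it detected 4.64% of strandless models and 33.5% of stranded models, where the 32 libraries used detected at least 17.7% of strandless and 57.4% of stranded models.

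All 5431 strandless models had 1 exon, a property the rule did not use. Their median length was 526 bases, with a range of 190 to 6293 bases, against a median of 1223 exonic bases for stranded models and 926 for stranded models with 1 exon. Of the strandless models, 19.6% were under 300 bases and 17.9% had at least 1000 bases, against 2.78% and 45.6% of stranded models with 1 exon. They lay on 2551 of the 6190 scaffolds that held a gene model. By scaffold, 1445 held strandless models only, and 1195 strandless models (22.0%) were alone on their scaffold, against 20.9% of stranded models with 1 exon. A start within the first 10 bases of a scaffold was found for 656 strandless models (12.08%), 14.5% of stranded models with 1 exon and 6.73% of all stranded models.

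In relation to stranded genes, 1756 strandless models (32.3%) had no stranded gene on their scaffold and 1086 (20.0%) lay within an intron of a stranded gene. None overlapped an exon of a stranded gene, whereas 1298 of the stranded models with 1 exon (23.4%) did. A further 796 strandless models lay within 1 kb after the 3′ end of the nearest stranded gene, at a median distance of 251 bases, and 770 lay within 1 kb before its 5′ end, at a median of 274 bases. The remaining 533 and 490 lay farther after the 3′ end and before the 5′ end. Strandless models also lay beside each other: 2186 of them (40.25%) stood in runs of at least 2 with no stranded model starting between them, and the longest run held 11.

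Most strandless models were counted somewhere, but few were counted everywhere. At least 1 count in 1 of the 32 libraries was found for 5067 strandless models (93.3%), against 94.8% of stranded models and 90.7% of stranded models with 1 exon. The other 364 strandless models had no count, which over all 806541520 counts allows a level of up to 0.00372 CPM (the count scaled by the library's total), a limit that covers counting error only. A count in all 32 libraries was found for 183 strandless models (3.37%), against 45.6% of stranded models and 20.4% of those with 1 exon. The median strandless model was detected in 8 libraries with 50 counts over all of them, against 31 libraries and 1623 counts for the median stranded model and 20 libraries and 243 counts for the median stranded model with 1 exon.

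The level of strandless models was low. Levels are CPM scaled between libraries by the trimmed mean of M-values (TMM) and averaged over the 32 libraries. The median was 0.0618 CPM for strandless models, against 1.94 for stranded models and 0.297 for stranded models with 1 exon. Per kilobase of exon, which takes out the difference in length, the medians were 0.108, 1.51 and 0.294 CPM per kb. A mean of at least 1 CPM was reached by 297 strandless models (5.47%), against 58.2% of stranded models and 31.8% of those with 1 exon. At least 10 CPM was reached by 37 strandless models and at least 100 CPM by 8.

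**Figure D1:**
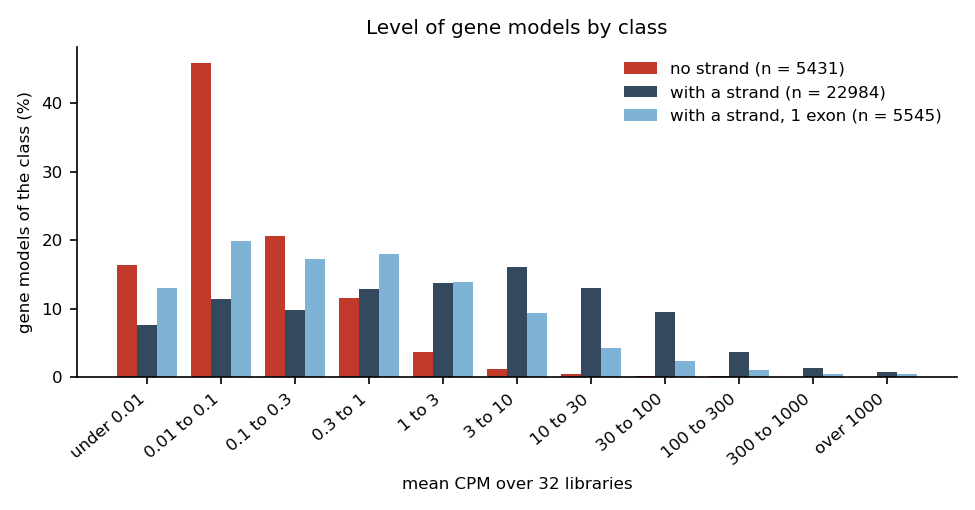
Percent of gene models of each class (y axis) by mean TMM-scaled CPM over the 32 libraries (x axis, unequal bins); bars stand for strandless models, stranded models and stranded models with 1 exon. Most strandless models lie under 0.3 CPM, while stranded models spread up to over 1000 CPM.

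Longer strandless models were more often measurable. The filter for testing asked for 2 or more libraries with a CPM of 1 or more. It was passed by 9.29% of strandless models under 300 bases, 13.8% of those from 300 to under 600, 19.0% of those from 600 to under 1000 and 40.5% of those of 1000 bases or more. The same classes of stranded models with 1 exon passed in 29.9%, 41.8%, 46.5% and 63.0% of cases. In all, 1029 strandless models (18.9%) passed, against 72.9% of stranded models and 52.5% of stranded models with 1 exon, and 4402 were not tested. By position, 23.3% passed where no stranded gene was on the scaffold (410 models), 22.5% within 1 kb after a 3′ end (179), 16.9% within 1 kb before a 5′ end (130) and 13.2% inside introns (143).

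At like mean CPM, strandless and stranded models were detected in similar numbers of libraries. Between 0.1 and 0.3 CPM the median model was detected in 16 libraries for the strandless, 15 for the stranded and 15 for the stranded with 1 exon. Between 0.3 and 1 CPM these medians were 25, 26 and 25, and between 1 and 3 CPM they were 31 in all of these classes. The fitted coefficient of variation between replicate libraries beyond counting error was also alike at low levels, with medians between 0.3 and 1 CPM of 1.03 for strandless and 1.05 for stranded models. Above 3 CPM it was larger for strandless models: between 3 and 10 CPM the medians were 0.440 for 65 strandless models, 0.382 for stranded models and 0.417 for stranded models with 1 exon. Between 10 and 30 CPM they were 0.360 for 22 strandless models, 0.259 for stranded models and 0.285 for those with 1 exon. No test of these differences was made.

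By library, at an equal depth of 15015674 counts, between 961 and 2947 strandless models had a count, with a median of 1848 (34.0% of the models). The lowest library was 48 h of drying replicate 2, and the highest was the library at 36 h of drying. Rewetting 3 h replicate 2 had 2661 and the other libraries lay at or under 2126. The 2 libraries at 48 h of drying had 1632 and 961, the 3 at 40 h had 1201, 2056 and 1573, and the 2 at 0 h had 1153 and 1959, so these times overlapped. Detection of stranded models in the same libraries ran from 57.4% at 48 h of drying replicate 2 to 82.0% at rewetting 3 h replicate 2, and the 36 h library was second to it with 80.7%.

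**Figure D2:**
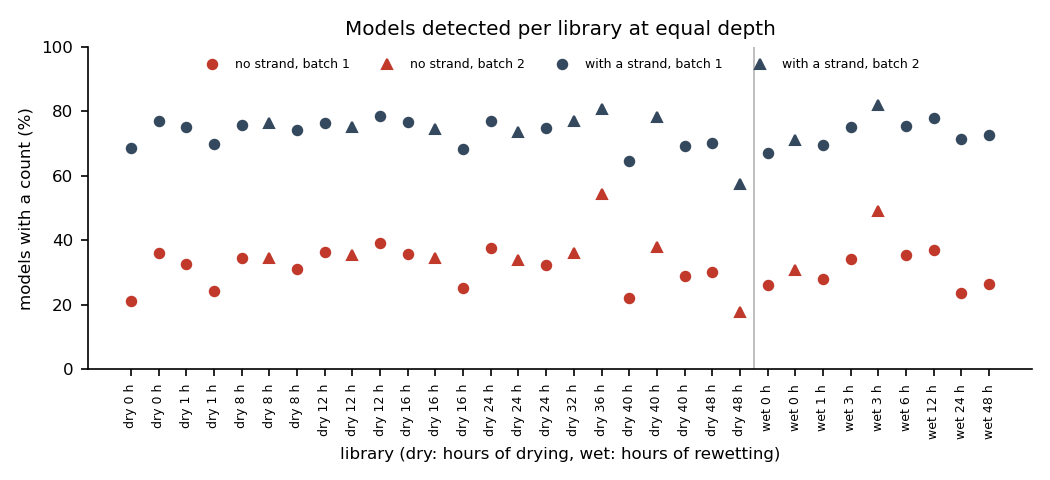
Percent of strandless and of stranded gene models with a count (y axis) in each of the 32 libraries (x axis, drying then rewetting hours) at equal depth; circles are batch 1 and triangles batch 2. The strandless points lie between 17.7% and 54.3%, below the stranded points in every library, and the libraries at 36 h of drying and rewetting 3 h replicate 2 are the highest for both.

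A few strandless models held much of the counts of the class. Strandless models took from 0.260% of a library's counts, at 48 h of drying replicate 1, to 9.10%, at 32 h of drying, with a median of 0.515%. Most of this range came from the most abundant model, on scaffold 17825 from base 3 to 1624, alone on its scaffold. Its level was 264 to 70561 CPM, with a median of 1888 CPM and a mean of 5535 CPM. The 3 highest libraries, all of batch 2, were at 32 h of drying with 70561 CPM, rewetting 0 h replicate 2 with 36675 CPM and 24 h of drying replicate 2 with 14715 CPM. The replicates of those libraries had 3794 CPM at 0 h of rewetting, and 505 and 928 CPM at 24 h of drying, so libraries of 1 time lay far apart.

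Another 6 strandless models moved with it from library to library. These were on scaffold 19686 (bases 1 to 500), scaffold 28728 (3 to 518), scaffold 25281 (209 to 412), scaffold 54008 (3 to 878), scaffold 24539 (1 to 278) and scaffold 9650 (2163 to 2415). None of the 7 had a stranded gene on its scaffold. They were picked after their values were seen, as the models whose log2 CPM had a Pearson correlation of at least 0.9 with that of the most abundant model over the 32 libraries, and across all models 2 stranded ones met this as well, on scaffold 2961 (33287 to 33822, minus strand, 1 exon) and scaffold 4764 (158 to 794, plus strand, 2 exons). Their correlations ran from 0.92 to 0.99, while the next model after these 9 reached 0.71. Without the 3 libraries highest for the most abundant model, they ran from 0.86 to 0.99 over 29 libraries.

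For the 3 closest in level, the ratio of the most abundant model to each varied less than the levels did. The level of the most abundant model was 6.75 to 14.0 times that of the model on scaffold 19686, with a median of 7.74, although both levels varied widely. For the stranded model on scaffold 2961 the ratio was 4.91 to 10.2, with a median of 7.35. For the stranded model on scaffold 4764 it was 8.31 to 16.0, with a median of 10.7. All of these models share the same libraries, so the correlation describes these libraries and was not tested. The 7 strandless models took 0.0427% to 8.83% of a library's counts, and 11.9% to 97.1% of all strandless counts. Within batch 2 they took 0.166% to 8.83% (median 0.386%), and within batch 1 0.0427% to 0.669% (median 0.106%). The part of batch in this difference was not tested, and the batches hold different times. The other 5424 strandless models took 0.157% to 0.464% in every library.

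**Figure D3:**
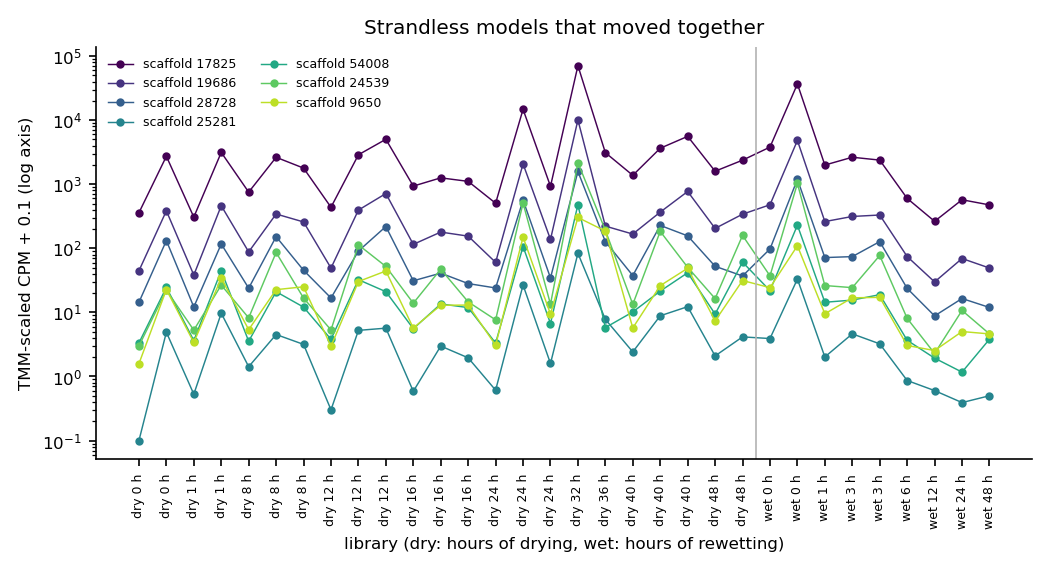
TMM-scaled CPM plus 0.1 (y axis, log scale) of the 7 strandless models that moved together, in each of the 32 libraries (x axis, drying then rewetting hours); lines join libraries only to guide the eye. All 7 models are highest at 32 h of drying. The most abundant one is next highest at rewetting 0 h replicate 2, and the one on scaffold 9650 at 36 h of drying.

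For none of these 7 models was a difference called in any of the comparisons below. The most abundant one had 1595 and 2372 CPM at 48 h of drying, against 359 and 2727 CPM at 0 h. The groups overlapped, and the log2 fold change was -0.25 (SE 1.45, adjusted p = 0.927, edgeR quasi-likelihood test).

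The share of counts in strandless models was compared between late drying (40 and 48 h, 5 libraries) and earlier drying (8 to 24 h, 12 libraries). It was 0.471% ± 0.206 in late drying (SD, n = 5; lowest 0.260%, median 0.506%, highest 0.745%) and 0.656% ± 0.512 in earlier drying (SD, n = 12; lowest 0.282%, median 0.504%, highest 2.14%). The groups overlapped, and the difference of -0.184 percentage points did not pass the test (two-sided exact permutation test, p = 0.496). Within batch 1 it was -0.0551 (3 against 8 libraries, exact permutation p = 0.8) and within batch 2 -0.465 (2 against 4, exact permutation p = 0.4). Without the most abundant model the share was 0.256% ± 0.0750 in late drying and 0.363% ± 0.111 in earlier drying, a difference of -0.107 (exact permutation p = 0.0491). Without all 7 models that moved together, an alternative chosen after seeing the data, it was 0.209% ± 0.0535 in late drying (n = 5) and 0.298% ± 0.0568 in earlier drying (n = 12), a difference of -0.0881 (two-sided exact permutation p = 0.0097). The direction rests on the scaling. The TMM factors of the late libraries were 0.543 to 0.869 and those of the earlier ones 0.987 to 1.17. With each share divided by its library's factor, also chosen after seeing the data, the values without the 7 models were 0.299 ± 0.0612 in late drying (SD, n = 5) and 0.275 ± 0.0441 in earlier drying (SD, n = 12), a difference of 0.0237 (two-sided exact permutation p = 0.379). Over all strandless models the difference so scaled was 0.0407 (exact permutation p = 0.695), and without the most abundant model it was 0.0240 (exact permutation p = 0.6254).

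Changes over the cycle were tested with edgeR's quasi-likelihood test on all 17789 models that passed the filter, with batch as a term, and a model was called where the Benjamini-Hochberg adjusted p over all of them was under 0.05. At least 1 of the 5 comparisons made a call for 176 of the 1029 strandless models tested (17.1%), against 8333 of all 17789 (46.8%). Strandless models are mostly of low level, so their shares are given beside those of stranded models in the same bins of mean CPM, weighted to the strandless models' numbers per bin. These differences between classes were not tested. The largest rise and fall of a comparison are given among called models with a fold of 2 or more, at least 5 CPM in the higher group and groups that do not overlap.

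**Figure D4:**
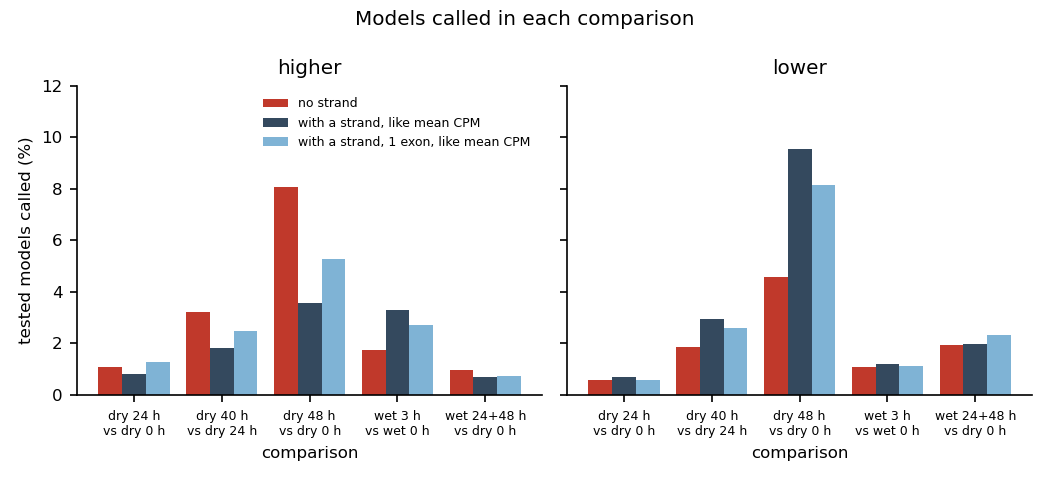
Percent of tested models called higher (left) and lower (right) in each of the 5 comparisons (x axis), for strandless models and for stranded models of like mean CPM, all and with 1 exon (bars). At 48 h against 0 h of drying the strandless bar is 8.07% for higher and 4.57% for lower, and for stranded models of like mean CPM the bars are 3.59% and 9.55%.

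The comparison of 48 h with 0 h of drying asked what differed between dried larvae and larvae before drying. It had the most calls: 83 strandless models (8.07%) rose and 47 (4.57%) fell, while over all tested models 15.1% were called higher and 18.2% lower. Among stranded models of like mean CPM, 3.59% were called higher and 9.55% lower, and among those with 1 exon 5.27% and 8.17%. The median log2 fold change was 0.06 over the 1029 strandless models, -0.76 over stranded models of like mean CPM and -0.28 over all. With the 201 strandless models that had no count in 1 of the groups set at the bound that 3 counts allow, and the 40 with at most 3 counts in both left out, the strandless median was 0.07. Scaling by total counts alone turned this split, to 46 strandless models higher and 104 lower (30.7% of calls higher, against 63.8% with TMM). Over all tested models it gave 1250 higher and 6683 lower (15.8% of calls higher, against 45.4% with TMM). The strandless median was then -0.81 and the median over all models -1.22. Without 0 h replicate 1, 30 strandless models rose. Without 48 h replicate 2, 53 rose and 20 fell, without 0 h replicate 2, 30 fell, and in batch 1 alone 33 rose and 17 fell.

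Of the rises, PvG027741 was the largest. This model covers bases 1 to 909 of scaffold 636, 2388 bases after the 3′ end of the nearest stranded gene. It had 123.9 and 199.7 CPM at 48 h of drying, against 0 and 0.0901 CPM at 0 h. The 48 h libraries were far above those at 0 h, with 5703 counts against 3. Per TMM-scaled depth the ratio was 3326 (95% exact interval for counting error 1137 to 16131), and the fitted log2 fold change was 11.65 (SE 1.15, adjusted p = 1.02e-06). Between these times it had at most 3.62 CPM up to 32 h, then 114.8 CPM at 36 h, so the libraries fell into a low and a high set. Within the low set it was already called higher at 24 h than at 0 h (187 against 3 counts, log2 fold change 5.58, SE 1.09, adjusted p = 0.00434). At 40 h it had 113.7, 78.2 and 180.4 CPM, against 2.29, 1.68 and 3.62 CPM at 24 h (log2 fold change 5.64, SE 0.65, adjusted p = 1.47e-05). In rewetting it had 179.4 and 88.6 CPM at 0 h, 101.3 at 1 h, then 24.0 and 25.8 at 3 h, 13.0 at 6 h, 3.09 at 12 h, 2.33 at 24 h and 0.437 at 48 h. The fall at 3 h against 0 h of rewetting passed the test (log2 fold change -2.41, SE 0.68, adjusted p = 0.0204).

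PvG009287, with bases 168004 to 170026 of scaffold 1840, lay in an intron of a stranded gene with 8 exons on the minus strand. It had 3.07 and 7.75 CPM at 48 h, against 0 in both 0 h libraries, or 189 against 0 counts. That is at least 110.2-fold higher per TMM-scaled depth, taking 3 counts over the 0 h libraries as the floor (adjusted p = 0.00729). The host gene had a log2 fold change of 0.79 in the same comparison (adjusted p = 0.777). Counts of an intronic model and its host cannot be separated with certainty where strand is not used, and the use of strand in counting is not given in the sources used here.

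Of the falls, PvG009670 (scaffold 1886, 33949 to 34478) lay 182 bases before the 5′ end of a stranded gene with 1 exon. It had no count at 48 h, against 15.8 and 6.91 CPM (687 counts) at 0 h, at least 131-fold lower on the same basis (adjusted p = 0.0013). The neighbouring gene fell too, with a fitted log2 fold change of -10.55 (adjusted p = 0.0148). PvG006229 (scaffold 144, 28080 to 28640) had no count at 48 h, against 17.8 and 2.01 CPM (584 counts) at 0 h, at least 111-fold lower (adjusted p = 3.23e-04). The 0 h replicate 1 library held 517 of the 584 counts, and without it the fitted log2 fold change was -8.96 (adjusted p = 0.0049), against -11.25 with it. With the 40 h library labelled 48 h moved to 48 h it was -5.86 (adjusted p = 0.00399). In rewetting PvG009670 had no count at 0 and 1 h, 0 and 0.392 CPM at 3 h, 0.681 CPM at 6 h and 3.90, 2.85 and 3.24 CPM at 12, 24 and 48 h. PvG006229 had 0 and 0.376 CPM at 0 h, no count at 1 h, 1.29 and 0.723 CPM at 3 h, no count at 6 h and 1.16, 2.17 and 1.202 CPM at 12, 24 and 48 h.

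**Figure D5:**
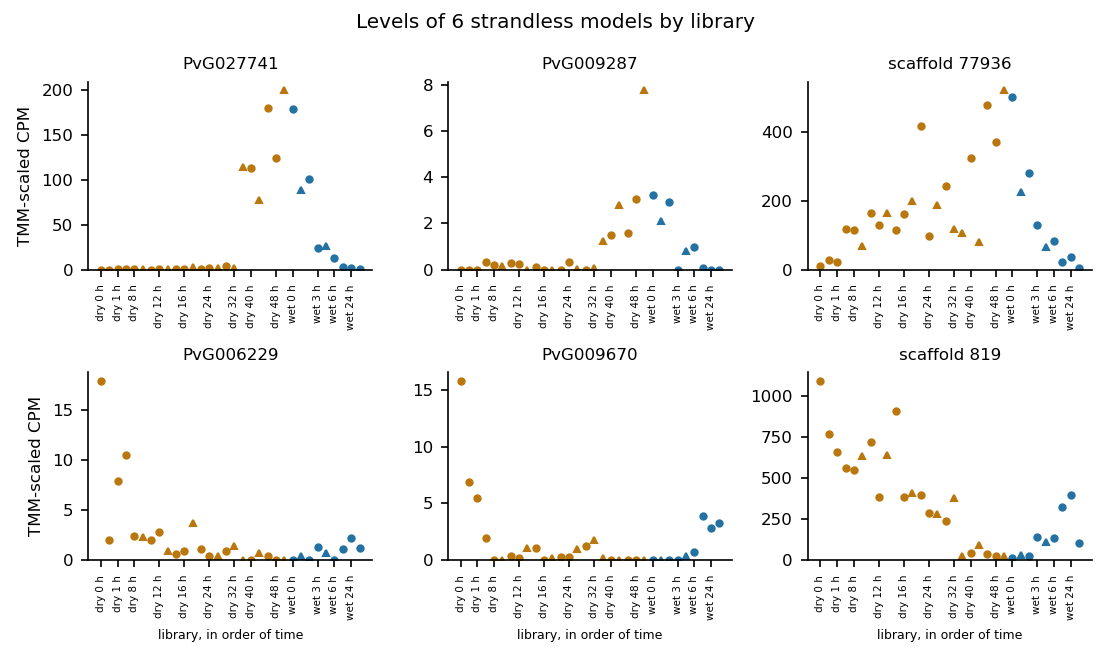
TMM-scaled CPM (y axis, from 0) of 6 strandless models in each library in order of time (x axis); brown is drying, blue is rewetting, circles are batch 1 and triangles batch 2. The upper row is high in late drying and early rewetting, and the lower row is highest at or near 0 h of drying. The model on scaffold 77936 is also high at 16 h of drying replicate 3.

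Among abundant models, the one on scaffold 819 (345231 to 345885), 3604 bases after the 3′ end of a stranded gene, was called in all 5 comparisons. It had 26.2 and 25.4 CPM at 48 h, against 1091 and 768 CPM at 0 h, and the groups did not overlap (log2 fold change -5.30, SE 0.44, adjusted p = 1.28e-08). It had already fallen at 24 h, with 289, 284 and 241 CPM (log2 fold change against 0 h -1.86, adjusted p = 0.00113), and at 40 h it had 44.5, 90.2 and 34.8 CPM (against 24 h -2.31, adjusted p = 1.77e-05). In rewetting it rose to 139.6 and 112.8 CPM at 3 h, against 15.1 and 31.6 CPM at 0 h (log2 fold change 2.49, SE 0.39, adjusted p = 1.97e-04). At 12, 24 and 48 h of rewetting it had 323, 396 and 104.8 CPM, and the last 2 were still under the 0 h drying libraries (log2 fold change -2.19, adjusted p = 6.58e-04). The nearest stranded gene fell as well at 48 h, with a fitted log2 fold change of -10.81 (adjusted p = 0.00204).

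The 83 models that rose at 48 h had their median log2 difference from the mean of the 0 h libraries at 0.91 to 1.64 from 8 to 32 h, 3.24 at 36 h, then 3.29, 2.24 and 3.28 at 40 h, and 3.79 and 3.78 at 48 h. In rewetting the median was 3.09 and 2.55 at 0 h, 3.12 at 1 h, then 2.11 and 1.82 at 3 h, 1.92 at 6 h, 0.68 at 12 h, 0.61 at 24 h and 0.20 at 48 h. The 0 h and 48 h values describe the calls themselves and are no result. All other values are differences from the same 0 h libraries that the calls used, so they too lean in the called direction. The 47 models that fell had medians of -3.89 and -4.09 at 48 h, -3.50 and -2.82 at 0 h of rewetting, -1.76 and -1.53 at 3 h, and -0.33 and -0.43 at 24 and 48 h of rewetting. The filter was passed without the 48 h libraries by 79 of the 83, and without the 0 h libraries by 45 of the 47. No count at 0 h was found for 27 of the 83, and no count at 48 h for 31 of the 47.

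The models called at 48 h were then looked up in comparisons that share no library with it. Of the 83, 20 also rose at 40 h against 24 h of drying and none fell, and these were 60.6% of the 33 rises there. Over all tested models 10.2% were called higher and 8.76% lower at 40 h, and 9.84% higher and 9.04% lower at 3 h of rewetting. At 3 h against 0 h of rewetting, 7 of the 83 (8.43%) fell and none rose, which was 63.6% of the 11 falls. Of the 47, 10 (21.3%) fell at 40 h against 24 h, 52.6% of the 19 falls, and 10 rose at 3 h of rewetting, 55.6% of the 18 rises. The fitted direction was negative at 3 h of rewetting for 70 of the 83 and positive for 33 of the 47. Among stranded models called at 48 h it was negative for 2237 of the 2600 rises and positive for 2464 of the 3186 falls. Of the 2600 stranded models that rose at 48 h, 1431 (55.0%) rose at 40 h and 989 (38.0%) fell at 3 h of rewetting. Of the 3186 that fell, 1148 (36.0%) fell at 40 h and 934 (29.3%) rose at 3 h of rewetting. The stranded models here were not matched for mean CPM.

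By position, rises at 48 h were called for 15 of 143 intronic models (10.5%), 13 of 130 within 1 kb before a 5′ end, 16 of 179 within 1 kb after a 3′ end (8.94%) and 32 of 410 with no stranded gene on the scaffold (7.80%). Falls were called for 2.80%, 8.46%, 2.79% and 4.15% of them. Of the 82 farther after a 3′ end 4 rose and 4 fell, and of the 85 farther before a 5′ end 3 rose and 6 fell. The nearest stranded gene was itself tested for 41 of the rises, and 15 of these neighbours rose and none fell. It was tested for 21 of the falls, and 9 neighbours fell and 4 rose. Over all tested models 15.1% were called higher and 18.2% lower. Across the 467 models with a tested neighbour, the log2 fold changes of model and neighbour had a Pearson correlation of 0.30, which was 0.50 for the 137 within 1 kb after a 3′ end, 0.31 for the 117 inside introns and 0.20 for the 96 within 1 kb before a 5′ end. Models share libraries and are not independent, so these are descriptions.

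At 24 h against 0 h of drying, 11 strandless models (1.07%) rose and 6 (0.583%) fell, beside 4.59% called higher and 2.93% called lower over all tested models. Stranded models of like mean CPM had 0.822% and 0.698%. Fitted log2 fold changes of the called rises reached 8.63, with a median of 3.35. The largest rise under the naming criteria was on scaffold 77936 (48933 to 49231), 29 bases before the 5′ end of a stranded gene with 1 exon on the minus strand. It had 97.8, 188 and 242 CPM at 24 h, against 11.7 and 28.5 CPM at 0 h, and all 24 h libraries were above both 0 h libraries (log2 fold change 3.35, SE 0.84, adjusted p = 0.0245). The call was lost in batch 1 alone (adjusted p = 0.11) and without either 0 h library (0.226 and 0.0514), 24 h replicate 2 (0.0591) or 24 h replicate 3 (0.0709). At 48 h the model had 371 and 522 CPM (log2 fold change against 0 h 4.82, adjusted p = 0.00109), and its stranded neighbour moved with it, its log2 fold change being 2.40 at 24 h (adjusted p = 2.31e-04) and 3.64 at 48 h (4.55e-07). The model had 119.6 CPM at 1 h of drying replicate 2, 418 CPM at 16 h replicate 3 and 80.0 CPM at 40 h replicate 2. In rewetting it had 503 and 226 CPM at 0 h and 36.3 and 5.87 CPM at 24 and 48 h.

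The largest fall at 24 h was that of PvG006229, with 0.422, 0.413 and 0.935 CPM at 24 h, against 17.8 and 2.01 CPM at 0 h (log2 fold change -4.21, SE 1.095, adjusted p = 0.0187). The groups did not overlap, but the 0 h libraries lay far apart. Without 0 h replicate 1 the log2 fold change was -1.91 (adjusted p = 0.585). The call was also lost in batch 1 alone (adjusted p = 0.105), with the library that stood apart added (0.1), and without 24 h replicate 1 (0.0811) or 24 h replicate 2 (0.0901). Without 0 h replicate 1 the count of rises in this comparison was 2 and that of falls 2, and in batch 1 alone 3 rose and 4 fell. Without 24 h replicate 3 the count of rises was 6.

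At 40 h against 24 h of drying, 33 strandless models (3.21%) rose and 19 (1.85%) fell, beside 10.2% called higher and 8.76% called lower over all tested models. Stranded models of like mean CPM had 1.81% and 2.94%. With scaling by total counts alone the split turned to 19 higher and 42 lower, beside 780 higher and 3788 lower over all tested models. Counts of rises were 17, 20 and 13 without 24 h replicate 1, 2 or 3 and 18 without 40 h replicate 3, and falls were 12 and 10 without 24 h replicate 2 or 3 and 7 without 40 h replicate 1. In batch 1 alone the split turned too, to 9 higher and 15 lower, beside 1275 higher and 1844 lower over all models tested there. Under the naming criteria the largest rise was that of PvG027741, given above, where fitted log2 fold changes of called rises reached 9.13. The largest fall under them, where those of called falls reached -7.63, was on scaffold 36061 (3 to 657), with no stranded gene on the scaffold. It had 0.197, 1.197 and 1.81 CPM at 40 h, against 5.96, 3.97 and 7.23 CPM at 24 h, with no overlap (log2 fold change -2.41, SE 0.72, adjusted p = 0.0195). The call was lost without 24 h replicate 3 (adjusted p = 0.0616) or 40 h replicate 1 (0.0819).

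Rewetting at 3 h was compared with 0 h of rewetting, the start of rewetting. Here 18 strandless models (1.75%) rose and 11 (1.07%) fell, beside 9.84% called higher and 9.04% called lower over all tested models. Stranded models of like mean CPM had 3.29% and 1.21%. The median log2 fold change was -0.09 over strandless models (-0.19 with models at 0 in 1 group at their bound), 0.44 over stranded models of like mean CPM and 0.08 over all. With upper quartile scaling 17 rose and 18 fell, beside 1468 higher and 2215 lower over all tested models. With scaling by total counts alone 39 rose and 1 fell, beside 4988 higher and 99 lower over all tested models. The medians with total counts alone were 0.75 over strandless and 0.99 over all models. Without any 1 of the 4 libraries, 5 or 6 rose. Leaving out 0 h replicate 1 gave 2 falls, 3 h replicate 1 gave 4 and 3 h replicate 2 gave 3. In batch 1 alone 5 rose and 1 fell.

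Under the naming criteria, the largest rise was on scaffold 5172 (1 to 253), while the median fitted log2 fold change of the 18 called rises was 7.32. It had 24.28 and 8.101 CPM at 3 h, against 0 and 0.226 CPM at 0 h of rewetting, or 982 against 3 counts. Per TMM-scaled depth the ratio was 142, with a 95% exact interval for counting error of 48.5 to 691. The fitted log2 fold change was 7.10 (SE 2.26, adjusted p = 0.0456). The call was lost under 9 of 15 alternatives, among them each of the 4 fits without 1 library (adjusted p 0.0679 to 0.249). The largest fall under the criteria was that of the longest strandless model, which fills bases 1 to 6293 of scaffold 30256. It had 4.90 and 2.32 CPM at 3 h, against 29.3 and 24.08 CPM at 0 h of rewetting, with no overlap (log2 fold change -2.92, SE 0.69, adjusted p = 0.00592). Without 3 h replicate 2 the adjusted p was 0.0864. In drying it had risen at 40 h, with 24.2, 14.1 and 30.9 CPM, against 3.58, 4.22 and 3.99 CPM at 24 h (log2 fold change 2.50, adjusted p = 0.00352). At 0 h of drying its libraries had 26.2 and 3.60 CPM. Those at 1 h of drying had 50.7 and 68.5 CPM, above all libraries at 40 and 48 h of drying. At 24 and 48 h of rewetting the model had 0.130 and 0.364 CPM (log2 fold change against 0 h of drying -6.06, SE 0.87, adjusted p = 2.24e-04).

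Larvae at 24 and 48 h of rewetting, with 1 library each, were compared with larvae at 0 h of drying. Of strandless models 10 (0.972%) rose and 20 (1.94%) fell, beside 3.37% called higher and 6.96% called lower over all tested models. Stranded models of like mean CPM had 0.709% and 1.97%. The median log2 fold change was -0.67 over strandless models (-0.71 with models at 0 in 1 group at their bound), -0.29 over stranded models of like mean CPM and -0.15 over all. The contrast averages the 2 times on the log scale, where no count in either library can lower a model's fit. The part of this in the strandless median was not tested. Another set and measure, the median log2 CPM difference from 0 h of drying by library, was taken for 290 better measured strandless models, followed below. It was 0.24 at 24 h and 0.02 at 48 h. For stranded models of like mean CPM it was 0.08 and 0.09. Without the 24 h library 4 rose and 6 fell, and without 0 h replicate 1, 5 rose. In batch 1 alone 7 rose and 17 fell.

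The model on scaffold 5172 was again the largest rise. It had 327 and 428 CPM at 24 and 48 h of rewetting, against 0.690 and 0 CPM at 0 h of drying (log2 fold change 10.12, SE 2.06, adjusted p = 0.00756). It reached at most 13.1 CPM in any drying library, and in rewetting it had 2.72 CPM at 6 h and 197 CPM at 12 h. In batch 1 alone the adjusted p was 0.0614, and without 0 h replicate 2 it was 0.0544. The largest fall under the naming criteria, where fitted log2 fold changes of called falls reached -8.63, was on scaffold 20494 (3596 to 4244), 673 bases after the 3′ end of a stranded gene. It had 0.746 and 0 CPM at 24 and 48 h of rewetting, against 3.07 and 7.99 CPM at 0 h of drying (log2 fold change -6.52, SE 1.21, adjusted p = 0.00107). Without the 48 h library the log2 fold change was -2.88 (adjusted p = 0.0822).

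The model on scaffold 25446 (1 to 588), among the most abundant, was high at the end of rewetting. It had 624 and 614 CPM at 24 and 48 h of rewetting, against 214 and 331 CPM at 0 h of drying, with no overlap (log2 fold change 1.18, SE 0.34, adjusted p = 0.0294). At 48 h of drying it had 271 and 276 CPM, and the difference from 0 h was -0.07 on the log2 scale (SE 0.35, adjusted p = 0.915). Its lowest library was 6 h of rewetting with 81.6 CPM.

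The course of the better measured models was followed in the 290 strandless models with a mean of at least 1 CPM outside the 7 that moved together, as the median log2 difference from the mean of the 0 h drying libraries. In the 2 libraries at 48 h of drying this median was 0.42 and 0.51, against -0.35 and -0.58 for stranded models of like mean CPM. At 36 h it was 1.02 against 0.07, and at 40 h 0.18, 0.11 and 0.70 against -0.41, 0.01 and -0.18. At 24 and 48 h of rewetting it was 0.24 and 0.02 against 0.08 and 0.09. Gaps of this kind were not confined to late drying: the median was 0.73 against 0.00 at 16 h replicate 3, 0.54 against 0.04 at 8 h replicate 3 and 0.47 against -0.05 at 1 h replicate 2. The strandless median was above that of like stranded models in 22 of 23 drying libraries, all but 0 h replicate 1, and in 6 of 9 rewetting libraries, all but those at 6, 12 and 48 h. The 2 libraries at 0 h of drying mirror each other by construction. Every other library is set against those same 2, so a shift in them moves all values together, and these counts are not repeated results. The 10th and 90th percentiles over the 290 models at 48 h replicate 1 were -2.32 and 2.93, so single models lay far on both sides of the median.

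Single libraries also carried many of the peaks. Of the 1029 tested strandless models, 137 (13.3%) had their highest level in the 36 h drying library, 136 (13.2%) in 48 h of drying replicate 2 and 119 (11.6%) in 16 h of drying replicate 3. Of all tested stranded models, not matched for mean CPM, these libraries held the highest level of 8.00%, 4.47% and 4.41%. Strandless models are mostly of lower level, and the part of level in this difference was not tested. The other 48 h library held the highest level of 2.14% of tested strandless and 6.99% of tested stranded models, so the 2 libraries of that time differed. The library at 24 h of rewetting held it for 5.83% of strandless and 10.2% of stranded models.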

How the data were processed

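Counts of RNA-seq reads per gene model were used as the authors deposited them, whole numbers without normalization, with the authors' annotation of gene models. TopHat2 is named as the aligner per the submitters' processing notes. No version, genome build, counting tool or use of strand in counting is given in the sources used here. A TruSeq RNA kit, version 2, is named in the labels' protocols. Strandless models that overlap a stranded gene, and models with near-identical copies, are therefore uncertain. Positions are those of the deposited annotation, counted from 1. The files do not pair model IDs with names, and 0 of the IDs matched the reference table, so no gene lists, functions or sequences are given.

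The members, comparisons and naming rule were chosen with earlier results of these data known. Samples were grouped by title. Models with a CPM of total counts of at least 1 in at least 2 of the 32 libraries entered edgeR 4.0.16, run in R 4.3.3 with limma 3.58.1: TMM scaling, robust quasi-likelihood F-test, 1 coefficient per time and a batch term over all libraries, and Benjamini-Hochberg adjustment over all models tested, with a threshold of 0.05. A term per time shares 1 estimate of the spread between times, including those with 1 library. Log2 CPM used a prior count of 2. Stranded models of like mean CPM are all tested stranded models, weighted to the strandless models' numbers in bins of mean CPM. Models were named by ID for the 2 largest rises and falls at 48 h against 0 h of drying, and by position for the 5 most abundant and for the largest rise and fall elsewhere, among called models with a fold of 2 or more, 5 CPM or more in the higher group and groups that do not overlap. The models that moved together were added after their values were seen. Floors of a fold are 3 counts over the libraries of a group, per TMM-scaled depth. Alternatives were other scalings and filters, DESeq2 1.42.0, a fit without batch, batch 1 alone, a replicate block, adding the library that stands apart, moving the 40 h library to 48 h, omitting each library in turn, and, for the share of counts, dividing by the TMM factor. The fits were tested on simulated data.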

Additional observations from a re-analysis of the deposited data

Results flagged for a closer look

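The replicate 2 library at 1 h of rewetting, which entered no comparison, held 2.77% of its counts in strandless models, above the 0.406% and 0.717% of the libraries at 0 h of drying. The 7 models that moved together took 2.39% of its counts, and the other strandless models took 0.377%. The batch 1 library of the same time held 0.352% in strandless models. The most abundant model alone took 1.90% of the counts of the library left out. Among the batch 2 libraries used, the strandless share was 9.10% at 32 h of drying, 2.97% at rewetting 0 h replicate 2 and 2.14% at 24 h of drying replicate 2. In the rest of batch 2 it was at most 0.744%.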

How the results depend on the processing

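Detection of strandless models depended on its definition, with 93.3% for any count, 81.9% for at least 10 counts over all libraries and 18.9% for a CPM of 1 in 2 libraries. The late minus earlier drying difference in their share of counts was -0.107 without the most abundant model and -0.0881 without the 7 models that moved together, where the test was passed. Divided by each library's TMM factor it turned, to 0.0407 over all strandless models, 0.0240 without the most abundant and 0.0237 without the 7, where the test was not passed. It ran from -0.253 to -0.0498 percentage points with 1 library left out. Counts of calls are given as higher and lower. With DESeq2 they were 32 and 13 for 24 h of drying against 0 h, 50 and 48 for 40 h against 24 h, 109 and 82 for 48 h against 0 h, 31 and 23 for 3 h of rewetting, and 19 and 46 for the last rewetting times. With the library otherwise left out they were 4 and 2, 4 and 4, 34 and 23, 1 and 0, and 2 and 3, in the same order. For the 0 falls at 3 h of rewetting in that edgeR fit, edgeR without this library gave 11 and DESeq2 without it gave 23. By the looser measure of an unadjusted p under 0.05 in either direction, edgeR without it gave 89 of 1029 strandless models. In batch 1 alone, where fewer strandless models (852) were tested, they were 3 and 4 at 24 h, 9 and 15 at 40 h, 33 and 17 at 48 h, 5 and 1 at 3 h of rewetting, and 7 and 17 for the last times. Scaling by total counts alone gave 19 and 42 for 40 h, 46 and 104 for 48 h, and 39 and 1 for 3 h of rewetting. Over all tested models it gave 780 and 3788, 1250 and 6683, and 4988 and 99, in the same order. Upper quartile scaling gave 18 strandless models lower at 3 h of rewetting. With no filter 11 were higher at 3 h of rewetting, and with the 40 h library moved to 48 h, 29 were lower at 48 h. Scaling by total counts alone moved the median log2 fold change over all tested models to -0.20 for 24 h, -0.58 for 40 h, -1.22 for 48 h and 0.99 for 3 h of rewetting, where TMM gave 0.01, -0.07, -0.28 and 0.08, and upper quartile scaling moved it to -0.13 for 48 h and -0.10 for 3 h of rewetting. The cause of these shifts was not tested.

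With 1 library left out, higher calls ran from 2 to 10 and lower calls from 2 to 8 at 24 h against 0 h of drying. They ran from 13 to 25 and 7 to 22 for 40 h against 24 h, from 30 to 67 and 20 to 52 for 48 h against 0 h, from 5 to 6 and 2 to 9 for 3 h of rewetting, and from 4 to 14 and 6 to 20 for the last rewetting times. Where this left 1 library at a time, it was taken to vary like the others. No alternative reversed the direction of a model named for its change. The 4 models named by ID at 48 h kept their call under all 15 alternatives.

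With the replicate number as a block (replicate block), 22 models were higher and 13 lower at 24 h against 0 h of drying and 17 were lower at 3 h of rewetting; 70 and 47 were higher and lower at 48 h. The labels do not say that a replicate number pairs libraries of different times, and same-numbered batch 1 libraries had deviations correlated at 0.0753 to 0.160.

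Depth limits what can be said of most strandless models: the median one had 50 counts over 32 libraries, and 4402 of 5431 were too low to test. Most times had 1 to 3 libraries, and batch 2 had none at 0 h of drying.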
